A study of Callithrix jacchus with 4 samples.

Results

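Oligodendrocyte precursor cells (OPCs) were examined among single nuclei of somatosensory cortex from Callithrix jacchus, the common marmoset, a New World primate used in neurobiology. All animals were wild type and untreated. The neonatal group (D0, age 0 in the labels) and the adult group (Y2, 2 years) each held 2 libraries, and the labels state that every library came from a separate individual. The methods also describe a further library of batch 1, which was not analysed here. The tissue label and the study's methods name somatosensory cortex, while in the sample labels the treatment text adds motor cortex and the extraction text opens with a cerebellum. OPCs were all nuclei to which the authors gave the label OPC. There were 644 such nuclei of 36592 in all, or 1.76%, and 586 of them were neonatal and 58 adult.

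OPCs divide throughout life and give rise to the oligodendrocytes that wrap axons in myelin. They carry PDGFRA, the receptor for the mitogen PDGF-A, and the transcription factors OLIG1 and OLIG2, which direct cells into the oligodendrocyte lineage. In the cortex they are spread evenly through the gray matter, receive synaptic contacts from neurons and persist in adults. Astrocytes, the other glial type annotated here, support synapses and blood vessels, and both types arise from neural progenitors.

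The deposited table gives labels for each nucleus and no gene values, so the OPC label could not be checked against PDGFRA, OLIG1 or OLIG2. RNA content per nucleus was not analysed here. Neither mature oligodendrocytes nor microglia were named among the 10 annotated types, of which 2 were glial. The study's text describes its Pdgfra-positive population as oligodendrocyte lineage, and whether nuclei labelled OPC included later stages of that lineage was not tested. Libraries held 5622 to 14142 nuclei. Replicate 1 of each age belonged to batch 1 and replicate 2 to batch 2. A barcode sequence found in more than 1 library was carried by 3.57% of all nuclei and by 25 OPCs (3.88%). Whether any of those OPCs shared its sequence with an OPC of another library was not tested.

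OPC nuclei were a small part of every library, and a larger part of both neonatal libraries than of either adult library. D0 replicate 1 held 193 OPCs among 6482 nuclei, and D0 replicate 2 held 393 among 14142. Y2 replicate 2 held 56 among 10346, and Y2 replicate 1 held 2 among 5622. The neonatal libraries contributed 91.0% of all OPCs, and Y2 replicate 2 contributed 96.6% of the adult ones. Values of Y2 replicate 1 thus rest on 2 OPC nuclei, and the adult OPCs came almost wholly from the other animal.

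As a share of all nuclei, OPCs made up 2.88% ± 0.140 (SD, n = 2) in neonates. In adults they made up 0.288% ± 0.358 (SD, n = 2). Within a batch the D0 share was 83.7-fold that of Y2 in batch 1 and 5.13-fold in batch 2. In the fit over all 10 types, the odds of a nucleus being an OPC were 19.0 times higher at D0, with a 95% interval from 1.58 to 228. The adjusted p of 0.0747 (limma) lay above the threshold, while 30.0% of types passed in either direction and 20.0% passed with a lower share at Y2. The exact permutation test of the OPC share gave p = 0.333, and with 2 libraries per age no smaller p can be reached. The ages did not overlap for OPCs, but this held for 80.0% of types in either direction and for 40.0% with the lower values at Y2.

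The call depended on the libraries and on how the spread was estimated. With the replicate number as a block, which pairs the libraries of a batch, the OPC difference passed (adjusted p = 0.00222, limma), and 3 of 10 types passed in all. That fit gave all 10 types a pooled standard error of 0.574 on the natural log odds, whereas the libraries of OPCs alone gave 1.29. Without Y2 replicate 2 the log-odds difference went from -2.94 to -4.20 with an adjusted p of 0.000295 (limma), and without Y2 replicate 1 it was -1.69 with an adjusted p of 0.119 (limma). Each of these fits leaves a single adult library, with 2 OPCs in the former, and assumes that it varies like the neonatal libraries and the other types, so neither p measures the spread between adults. Leaving out either neonatal library left it at -2.91 or -2.98 (adjusted p = 0.231 and 0.214, limma).

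**Figure D1:**
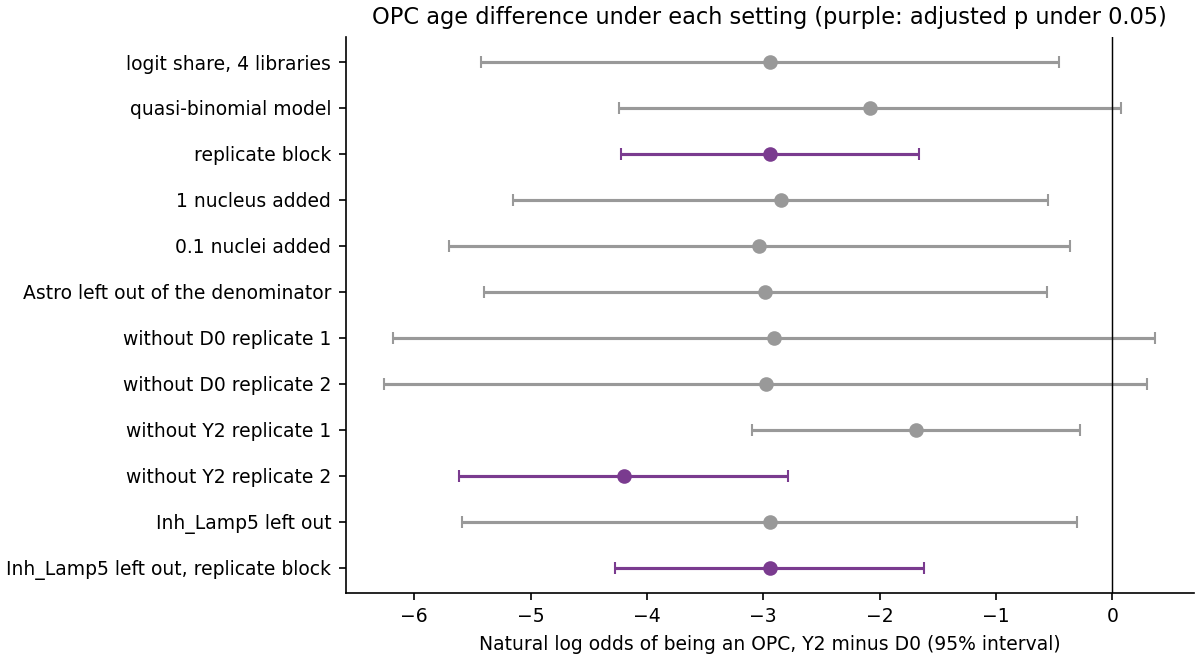
Natural log odds of a nucleus being an OPC, Y2 minus D0 (x axis), under each setting on the log-odds scale (y axis), with 95% intervals as bars and purple where the adjusted p was under 0.05. Every point lies below 0, from -1.69 without Y2 replicate 1 to -4.20 without Y2 replicate 2, and 3 settings are purple.

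A share of all nuclei moves with every other type in the library, so OPCs were next set against neurons, interneurons and astrocytes. Relative to all neurons, which here are the 8 annotated types other than Astro and OPC, the neonatal libraries were nearly equal. D0 replicate 1 held 31.1 OPCs per 1000 neurons (95% exact interval 26.8 to 35.9), and D0 replicate 2 held 31.7 (28.6 to 35.0). In the adult, Y2 replicate 1 held 0.357 per 1000 neurons (0.0432 to 1.29) and Y2 replicate 2 held 5.62 (4.24 to 7.31). Put the other way, there were 32.1 and 31.6 neurons for each OPC in the neonatal libraries, and 2802 and 178 in the adult libraries. Both adult ratios lay below both neonatal ones.

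The neonatal log2 ratio of OPCs to neurons was -4.99 ± 0.018 (SD, n = 2), and the adult one was -9.46 ± 2.81 (SD, n = 2). The difference of -4.47 corresponds to a 22.2-fold higher ratio at D0, with 87.2-fold for batch 1 and 5.63-fold for batch 2. The exact permutation test gave p = 0.333, its lower limit here. The adult animals themselves stood 15.8-fold apart, less than the mean age difference but more than that of batch 2, whereas the neonatal animals stood 1.02-fold apart. Without Y2 replicate 1 the log2 difference was -2.48, and without Y2 replicate 2 it was -6.46. With interneurons left out of the reference, so that it held callosal, subcerebral, corticothalamic and Layer IV neurons, the difference was -4.72.

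Interneurons, the GABAergic neurons of local circuits, were themselves a smaller part of the adult nuclei, and the OPC difference against them was less steep. The neonatal libraries held 110 OPCs per 1000 interneurons (94.4 to 128) and 135 (121 to 150). Y2 replicates 1 and 2 held 3.31 (0.400 to 12.0) and 42.8 (32.2 to 56.0). The log2 ratio was -3.04 ± 0.21 (SD, n = 2) in neonates, against -6.39 ± 2.61 (SD, n = 2) in adults. The ratio was 33.2-fold higher at D0 in batch 1 and 3.14-fold higher in batch 2 (exact permutation p = 0.333, the smallest possible). The mean age difference of 10.2-fold was smaller than the 12.9-fold gap between the adult animals. Its log2 value of -3.35 became -1.51 without Y2 replicate 1 and -5.20 without Y2 replicate 2.

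Relative to astrocytes the libraries fell into a different order. D0 replicate 1 held 193 OPCs and 86 astrocytes, or 2244 OPCs per 1000 astrocytes (1732 to 2928), and was the only library in which OPCs outnumbered astrocytes. D0 replicate 2 held 294 OPCs per 1000 astrocytes (262 to 330), Y2 replicate 2 held 169 (125 to 225) and Y2 replicate 1 held 125 (13.9 to 532). The ages did not overlap, although the interval of Y2 replicate 1 spanned the value of D0 replicate 2. The log2 ratio was -0.30 ± 2.07 (SD, n = 2) in neonates, against -2.78 ± 0.31 (SD, n = 2) in adults. Its difference of -2.48 was 18.0-fold in batch 1 and 1.74-fold in batch 2, and the exact permutation test gave p = 0.333. The mean age difference of 5.59-fold was smaller than the 7.62-fold gap between the neonatal animals. Its log2 value was -1.02 without D0 replicate 1 and -3.95 without D0 replicate 2. For the 3 ratios together the Benjamini-Hochberg adjusted p of the exact permutation tests was 0.333.

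**Figure D2:**
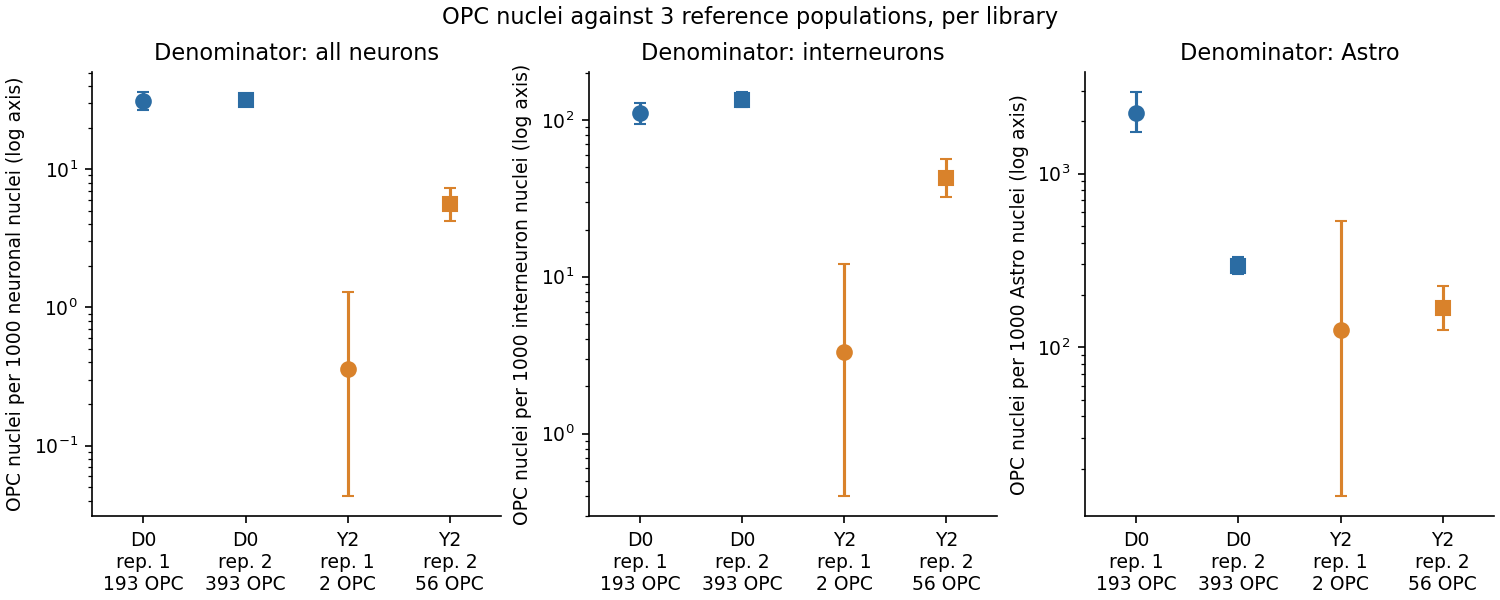
OPC nuclei per 1000 nuclei (y axis, log scale, a separate range in each panel) of all neurons, interneurons and Astro in each library (x axis), where blue marks D0 and orange Y2, a circle is replicate 1 and a square replicate 2, and bars are 95% exact intervals. The D0 libraries coincide against neurons (31.1 and 31.7) and lie far apart against Astro (2244 and 294), while the Y2 libraries lie apart against neurons (0.357 and 5.62) and close together against Astro (125 and 169).

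The glial part of the libraries shows the same contrast. OPCs and astrocytes together were 4.30% of nuclei in D0 replicate 1 and 12.2% in D0 replicate 2. They were 0.320% in Y2 replicate 1 and 3.74% in Y2 replicate 2. Among these glial nuclei OPCs made up 69.2% (Wilson 95% interval 63.5 to 74.3) and 22.7% (20.8 to 24.8) at D0. At Y2 they made up 11.1% (3.10 to 32.8) of 18 glial nuclei and 14.5% (11.3 to 18.3) of 387. The neonatal animals thus had OPC shares of all nuclei within 1.07-fold of each other and a 7.62-fold difference in the ratio of OPCs to astrocytes. The adult animals differed 15.2-fold in the OPC share, where the counting intervals did not overlap, and 1.35-fold in the ratio, where they did. Both glial types were scarce in Y2 replicate 1, and the part of glial capture in its low OPC count was not tested. The exact permutation test of the OPC share of glia gave p = 0.333.

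**Figure D3:**
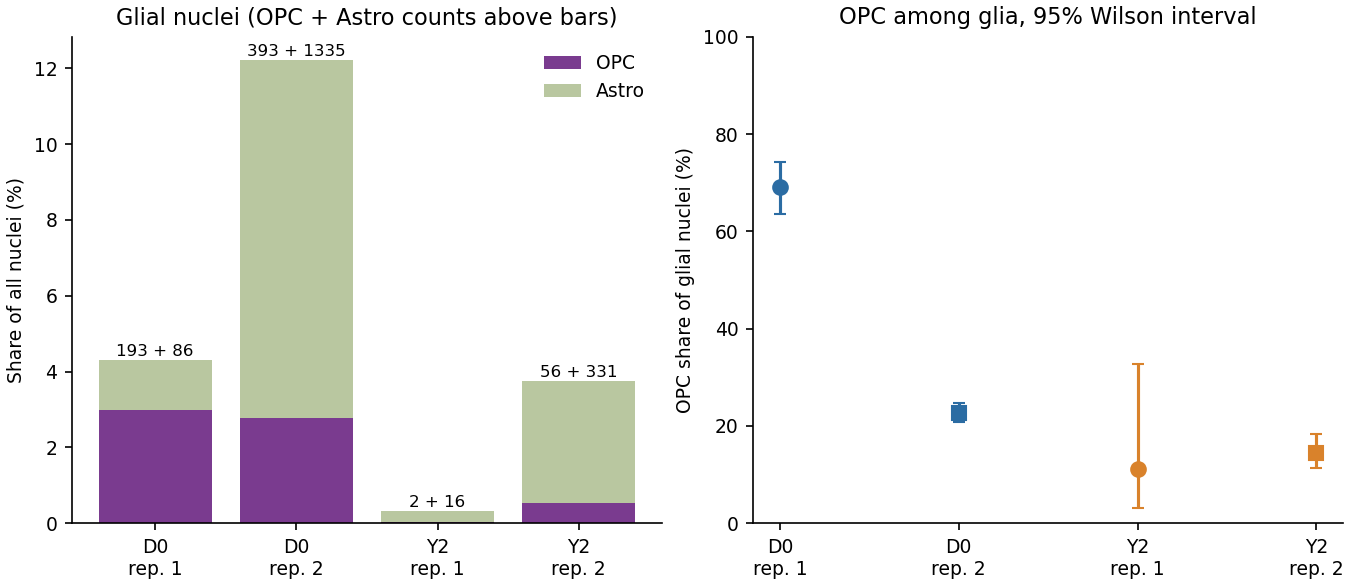
Left, share of all nuclei (%, y axis) taken by OPC (purple) and Astro (green) in each library (x axis), with the counts of both above each bar. Right, OPC share of glial nuclei (%, y axis) with 95% Wilson intervals, D0 in blue and Y2 in orange, which runs from 69.2% in D0 replicate 1 to 11.1% in Y2 replicate 1.

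OPCs were then set against each annotated type in turn. For the 8 other types present in every library, the ratio of OPCs to that type was lower at Y2 in both batches. This follows from the OPC share, which fell more than that of any other type in each batch, and all 8 ratios use the same OPC counts. For 7 of these 8 types the ages did not overlap. Across all 36 pairs of the 9 types present in every library the ages did not overlap for 72.2% of pairs. The type whose ratio to OPCs overlapped between ages was Inh_Vip, the interneurons named for vasoactive intestinal peptide. There were 312 and 489 OPCs per 1000 Inh_Vip nuclei in the neonatal libraries, and 38.5 and 315 in the adult ones, so that Y2 replicate 2 lay just above D0 replicate 1.

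The corticothalamic projection neurons (CthPN), which project to the thalamus, showed the widest gap. The neonatal libraries held 574 and 419 OPCs per 1000 CthPN nuclei, and the adult libraries held 1.31 and 44.2. The ratio was 439-fold higher at D0 in batch 1 and 9.49-fold in batch 2. CthPN took a larger share of adult than of neonatal nuclei in both batches, which enters this ratio as well as the OPC count. For subcerebral projection neurons (ScPN) the fold was 185 and 6.40 in batches 1 and 2, and for Layer IV neurons, which receive thalamic input, it was 109 and 9.41. For callosal projection neurons (CPN), which join the hemispheres, it was 27.2 and 4.51. ScPN and Layer IV neurons also took a larger share of adult nuclei in both batches, whereas CPN took a smaller one. The order of these folds thus also holds the changes of the reference types.

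Among interneuron types the steepest difference was against Inh_Pvalb, the parvalbumin interneurons. Their own share of all nuclei at D0 was 1.10-fold and 0.858-fold that at Y2 in the respective batches. There were 448 and 494 OPCs per 1000 Inh_Pvalb nuclei at D0, and 5.90 and 82.5 at Y2. This ratio was 75.9-fold higher at D0 in batch 1 and 5.99-fold in batch 2. Against Inh_Sst, named for somatostatin, it was 18.9-fold and 1.57-fold higher, and against Inh_Vip 8.12-fold and 1.55-fold. Inh_Lamp5 was listed at 0 in both neonatal libraries and gave no ratio there. The adult libraries held 26.7 and 364 OPCs per 1000 Inh_Lamp5 nuclei.

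**Figure D4:**
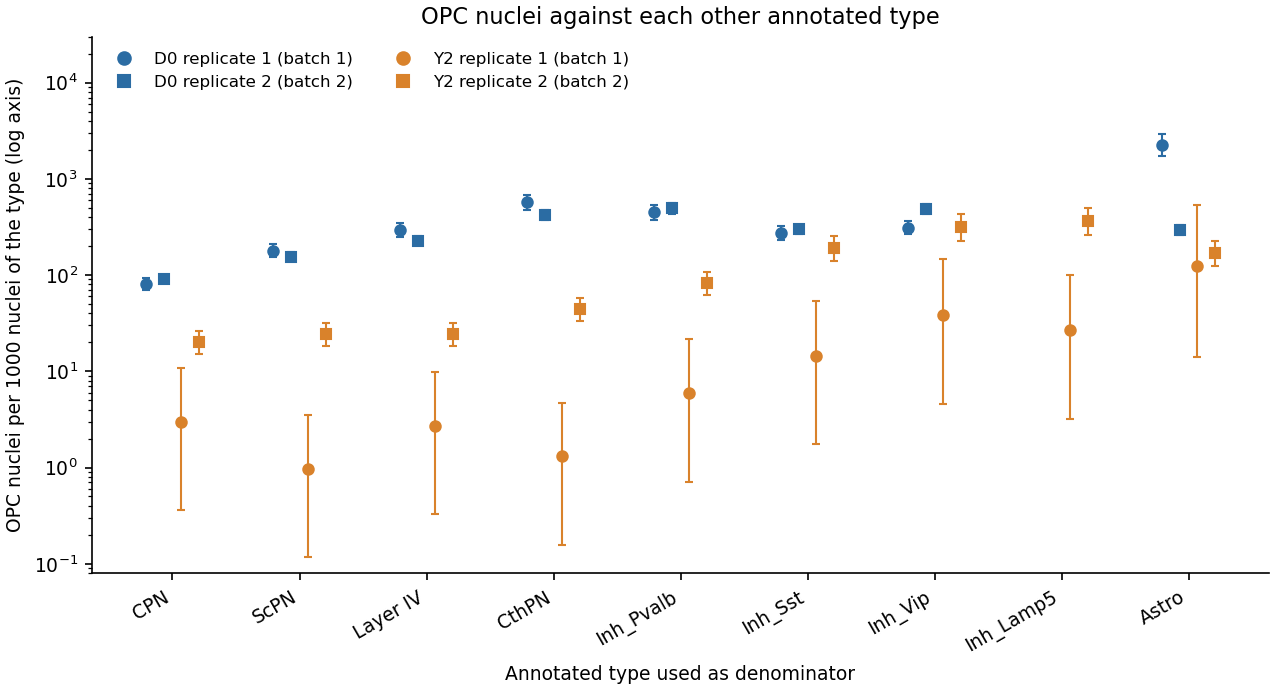
OPC nuclei per 1000 nuclei of each other annotated type (y axis, log scale; x axis, type) in each library, where blue marks D0 and orange Y2, a circle is replicate 1 of batch 1 and a square replicate 2 of batch 2, and bars are 95% exact intervals. Y2 replicate 1 is the lowest library for every type, at 0.968 per 1000 ScPN and 125 per 1000 Astro, and the only overlap of ages is at Inh_Vip, where Y2 replicate 2 reaches 315 against 312 in D0 replicate 1.

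The size of the difference can also be put in nuclei. At the OPC-to-neuron ratio of D0 replicate 1, the neurons of Y2 replicate 1 would have come with 174 OPCs, and 2 were counted. At the ratio of D0 replicate 2, those of Y2 replicate 2 would have come with 315, and 56 were counted. With interneurons as the reference the same arithmetic gave 66.5 and 176 OPCs, and with astrocytes it gave 35.9 and 97.4. The counted OPCs were fewer than each of these 6 values, which restates the within-batch folds above and rests on the same adult OPC counts.

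By share of nuclei, OPCs ranked 8 of the 9 types listed in D0 replicate 1, above astrocytes, and 9 of 9 in D0 replicate 2. In both adult libraries they were the smallest of 10 types. The next larger type was Inh_Lamp5 in Y2 replicate 2 (1.49%), and astrocytes in Y2 replicate 1 (0.285%, 16 nuclei against 2 OPCs). The ratio of D0 to Y2 shares was larger for OPCs than for any other type in each batch, followed by Inh_Vip at 10.3-fold and 3.30-fold, and these ratios come from 1 library per age and batch with no test between types. OPCs also had the largest gap between the adult libraries of all 10 types (15.2-fold, with astrocytes next at 11.2-fold). Between the neonatal libraries they had the smallest gap of the 9 listed types.

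**Figure D5:**
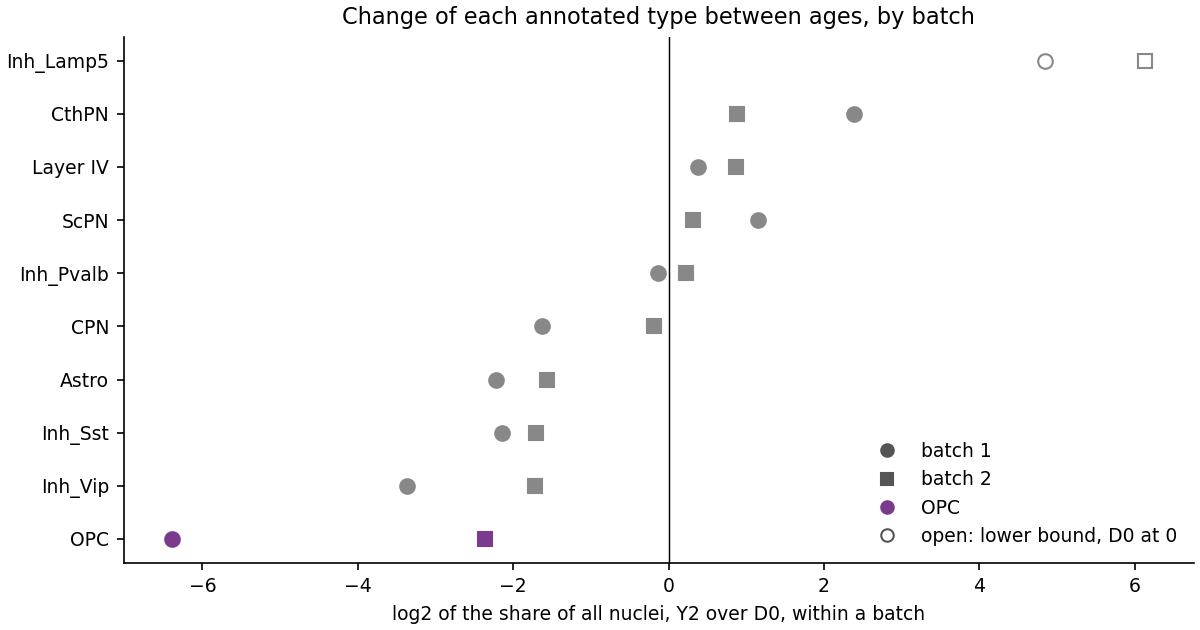
Log2 of the share of all nuclei at Y2 over D0 (x axis) for each annotated type (y axis), with circles for batch 1, squares for batch 2, OPC in purple and open symbols for a lower bound where D0 was at 0. OPC lies leftmost in both batches, at -6.39 and -2.36, and the gap between its 2 batches is the widest.

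All 644 OPCs lay in cluster 18, and this cluster held no other type. OPC and Inh_Lamp5 were the types that formed 1 cluster each. Cluster 18 was also among the 3 clusters of 34 with nuclei of both ages and of all 4 libraries, the others being a CPN and a CthPN cluster. Astrocytes formed 2 clusters, and neither held both ages. Of the 34 clusters 15 were smaller than cluster 18. The adult OPCs were too few, at 2 and 56 nuclei, for the clusters alone to show whether neonatal and adult OPCs differed in state.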

How the data were processed

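Nuclei of frozen cortex were sorted for DAPI and profiled with a droplet 3′ kit. The authors ran Cell Ranger 2.1.0 on a pre-mRNA transcriptome built for marmoset, downsampled the libraries to like complexity, and in Seurat kept nuclei above a gene minimum, corrected batches by CCA, dropped poorly fitted nuclei, clustered and annotated. Nuclei with little RNA are lost at such a minimum, so ratios are between retained nuclei. How doublets were handled: not given in the sources used here. The deposited table holds labels of age, replicate, batch, cluster and type per nucleus, which are not measured values.

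Groups and replicate numbers followed the sample descriptions; titles number some libraries differently. Nuclei were counted per library and type. Shares of all 10 types were compared in a single limma 3.58.1 fit (R 4.3.3) on the logit after adding 0.5 nuclei, two-sided, with Benjamini-Hochberg adjustment over types and a threshold of 0.05. The planned log2 ratios were compared by two-sided exact permutation tests over libraries. Intervals of 95% (Wilson for shares, Clopper-Pearson for ratios) cover counting error only. Replicate numbers match the batch column, so they pair libraries of a batch, and the deviations of same-numbered libraries correlated with r = 0.44 across the 10 types, which are not independent. The fit was tested on simulated data in which all types had the same spread between libraries. In these data the age-only fit gave standard errors, each type taken alone, of 1.26 for OPCs and 0.0997 for Inh_Pvalb. The simulation therefore could not show how the fit handles such unequal spread. OPCs, reference populations and tests were chosen with earlier results of these data known. All types could be named, and clusters only where an OPC result turned on them. Python 3.11.15, pandas 2.3.3 and scipy 1.17.1 were used.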

Additional observations from a re-analysis of the deposited data

How the results depend on the processing

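The lower OPC share at Y2 had the same direction in all 14 alternatives and passed in 5, with an adjusted p (limma, or the quasi-binomial model) from 0.000295 to 0.240. The lowest of these, and 1 of the 5 passes, is the fit without Y2 replicate 2, where the lone adult library holds 2 OPCs and is assumed to vary like the other groups. The OPC difference passed on the arcsine scale (difference -0.124, adjusted p = 0.0465), as a centred log-ratio (-2.89, adjusted p = 0.0359) and with the replicate block (-2.94, adjusted p = 0.00222). In these fits 4, 4 and 3 of the 10 types passed, respectively. With each library left out in turn the log-odds difference ran from -4.20 to -1.69. Its direction could not reverse in these fits, since the ages did not overlap for OPCs. The replicate block and the log-odds fits without Inh_Lamp5 repeat the main difference of -2.94 by construction. For these alternatives the shared direction is therefore no separate support. With Inh_Lamp5 left out, chosen after the data were seen, the OPC difference passed with the replicate block (-2.94, adjusted p = 0.00648), where 1 of 9 types passed. It did not pass without the block (adjusted p = 0.110) nor as a centred log-ratio (adjusted p = 0.0890), where no type passed. The quasi-binomial model, fitted to the 9 types other than Inh_Lamp5, gave -2.08 (adjusted p = 0.240).

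The 3 log2 ratios kept their direction in all 22 alternatives. The direction of each ratio was fixed where a library was left out, since the ages did not overlap. It was also fixed with the replicate block, which repeats the main difference. An exact sign-flip test over the 2 pairs of libraries gave p = 0.5 for each, the smallest it allows, so these tests could show no difference at any size. Counts summed per age gave smaller differences against neurons (-3.08), interneurons (-2.05) and astrocytes (-1.30). Summing weights libraries by their counts, whereas the log2 means weight both libraries of an age equally. Y2 replicate 2 held 96.6% of the adult OPCs, and D0 replicate 2 held 1335 astrocytes against 86 in D0 replicate 1. The counting intervals of Y2 replicate 1 are wide, since they rest on 2 OPCs.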
